A study of Mus musculus with 6 samples.

Results

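Progression through the cell cycle was examined at the RNA level in embryonic stem cells (ESCs) in which the transcription factor Snail was induced. The set comprised 43 named genes: the cyclins and cyclin-dependent kinases (CDKs) of G1, the G1 to S transition and mitosis, the CDK inhibitors, the pocket proteins with their E2F partners, the Myc factors and the factors that license and carry out DNA replication. Every probe set that the array annotation assigned to a single gene symbol was searched, and 42 of the 43 genes were represented, by 98 of the 45037 probe sets. The cyclin B1 gene Ccnb1 had no probe set with that single symbol and was not analysed here. The brightest probe set on average stood for each gene, and the 42 genes were among 18193 genes on the array and among the 14755 that passed the low-signal filter.

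In a dividing cell, D-type cyclins with CDK4 or CDK6 and cyclin E with CDK2 phosphorylate the pocket proteins Rb1, Rbl1 and Rbl2, which releases E2F factors to transcribe genes for DNA replication. CDK inhibitors hold these kinases back, and cyclin A, cyclin B and CDK1 then take the cell through G2 and mitosis. Mouse ESCs are known for a short G1 phase, with little D-type cyclin and CDK inhibitor activity, and G1 lengthens as they differentiate.

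The 6 arrays came from A2.snail, a single mouse ESC line of A2lox origin that carries Snail under a doxycycline (dox) responsive promoter. All cultures were embryoid bodies in medium with 10% fetal calf serum and Dickkopf (DKK), a secreted inhibitor of Wnt signaling. DKK cultures received no dox, and DKK + dox cultures received 250 ng/mL dox on day 2. RNA was taken 6, 12 and 24 hours later, with 1 array for each of the 2 conditions at each of the 3 times. Cells had been grown on irradiated fibroblast feeders until the last passage before differentiation, and no array of dox without the Snail transgene was part of the set, so dox and Snail cannot be told apart.

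The values were probe set intensities on a linear scale, and the difference between DKK + dox and DKK was taken in log2(intensity + 20.61), the offset being the 25th percentile of all values. An intensity of 37.19, the 40th percentile, served as the low-signal limit, and a gene was tested if its highest value exceeded it. Because a single pair of arrays carries no test, the dox effect was fitted with limma across the 6 arrays as a difference growing in proportion to hours after dox, with time as a block. The fitted difference given below is the height of this trend at 24 hours, in log2 units with its standard error (SE), and genes were said to rise or fall where the Benjamini-Hochberg adjusted p over all 14755 genes was under 0.05. Nothing in the labels describes replicate cultures, so these p-values measure how closely 6 arrays followed a trend. The median SD between probe sets of 1 gene, a technical spread, was 0.098 at 6 hours, 0.131 at 12 hours and 0.121 at 24 hours over 4926 genes.

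The induced gene itself could not be followed. The Snai1 probe set gave intensities of 32.9, 16.6 and 10.9 in DKK against 29.6, 18.8 and 14.5 in DKK + dox at 6, 12 and 24 hours, all under the low-signal limit, so it does not check the labels. Of the pluripotency markers that define the labelled cell type, all 8 were above the limit on every array, and Dnmt3b (-0.29), Sox2 (-0.32), Utf1 (-0.32) and Fgf5 (-2.63) fell in fitted log2 units. Pou5f1 (-0.11), Lin28a (-0.32), Nanog (-0.35) and Otx2 (-0.62) did not pass. The E-cadherin gene Cdh1 fell by 1.25, and 7 of the 8 epithelial junction genes fell, their summed intensity being 8479 to 16686 in DKK and 6040 to 6803 in DKK + dox. All 9 blood and endothelial markers that were tested rose, with a summed intensity of 770 to 1432 in DKK and 877 to 5937 in DKK + dox. Cdh5 was at the lowest value of the table in DKK at 6 hours. It exceeded the limit only in DKK + dox at 24 hours (145), so it entered the test through that value and its call adds nothing. Pecam1 was under the limit on every array and was not tested. Of parietal endoderm markers 5 of 10 rose (sums of 3311 to 4720 against 4449 to 6357), of feeder fibroblast markers 3 of 8 rose (1066 to 2153 against 1379 to 1740), and of visceral endoderm markers 1 rose and 1 fell of 9 (2763 to 4641 against 2308 to 4382). Of naive pluripotency markers 1 of 10 fell (1416 to 9705 against 1432 to 9306). The part of these shifts in cell type markers in any result below was not tested, and in bulk RNA fewer cells of a type and less RNA per cell cannot be told apart. The 6 hour arrays stood apart from the later ones, since in DKK the step from 6 to 12 hours took 275 genes up and 674 down by at least 2-fold, and the step from 12 to 24 hours took 63 up and 52 down.

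Of the 42 cell cycle genes, 7 rose (Ccnd2, Ccnd3, Cdkn1c, Mcm6, Ccnb2, Cdk1 and Bub1), 2 fell (Ccnd1 and Ccne1) and 33 did not pass. Among all genes tested, 8.32% rose and 6.38% fell, beside 16.7% and 4.76% of the cell cycle genes, a comparison that carries no test. All 42 genes passed the low-signal filter, and 40 of them were above the limit on every array, the exceptions being Cdkn2a and Cdkn2b. Of the 42 genes, 17 were higher with dox at each of the 3 times and 6 lower, against 21.5% and 21.9% of all genes. The median difference over the 42 genes was 0.03 log2 units at 6 hours, 0.06 at 12 hours and 0.08 at 24 hours, beside -0.04, 0.03 and 0.02 over all genes. Counted on the log2(intensity + 20.61) scale, as are all counts of 2-fold differences here, differences of at least 2-fold were seen in no member at 6 hours, in Ccnd2 at 12 hours, and in Ccnd2 and Cdkn1c at 24 hours, all of them higher with dox. The offset shrinks differences at low signal, and in intensity alone E2f2 at 12 hours was also past 2-fold, at 0.457 of the DKK value. The E2f2 value with dox at 12 hours, 37.9, was just above the low-signal limit. The background for at least 2-fold higher was 0.271%, 1.27% and 3.12% of all genes at the 3 times, and for at least 2-fold lower 0.468%, 2.25% and 2.2%. The calls depended on the form of the fit, since a difference held constant over the 3 times gave none, and leaving out the intensity trend of the variance left Ccnd2 alone.

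**Figure D1:**
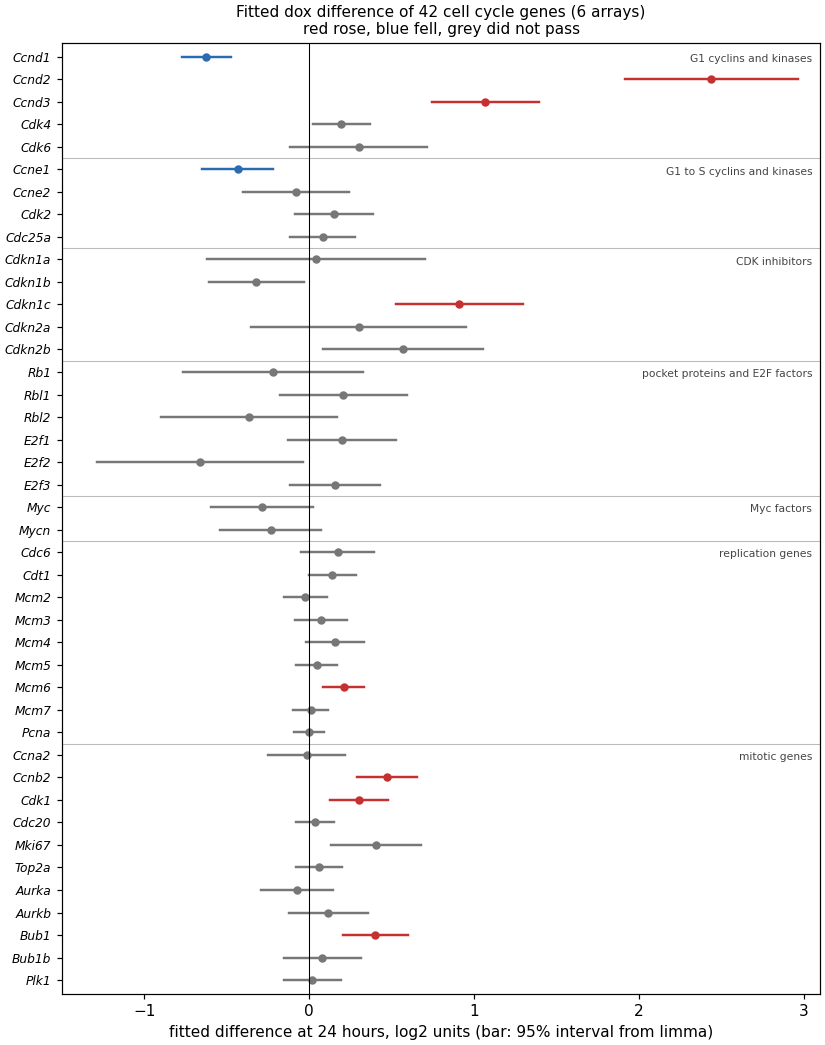
Fitted difference between DKK + dox and DKK at 24 hours in log2 units (x axis) for the 42 cell cycle genes (y axis), grouped by role, with the 95% interval from limma over 6 arrays. Red marks the 7 genes that rose, blue the 2 that fell and grey those that did not pass, with Ccnd2 farthest to the right at 2.44 and most replication genes close to 0.

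The D-type cyclins, the regulatory subunits that start G1 kinase activity in response to outside signals, moved in opposite directions. Ccnd2 rose and showed the greatest fitted difference of the 42 genes. Its intensity in DKK was 492 at 6 hours, 223 at 12 hours and 132 at 24 hours, and in DKK + dox it was 531, 680 and 791. The 2 series began almost level and then diverged, with all 3 dox values above all 3 DKK values and a 6.00-fold ratio at 24 hours. The fitted difference was 2.44 (SE 0.225, limma adjusted p 0.002 over 6 arrays), and Ccnd2 kept its call without any 1 of the 3 time points.

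Ccnd3 rose as well. It was 1167, 722 and 777 in DKK against 1376, 1303 and 1496 in DKK + dox at 6, 12 and 24 hours. The lowest value with dox was above the highest without it, and the fitted difference was 1.07 (SE 0.139, limma adjusted p 0.004). Its promoters at both annotated starts are among those searched for sequence motifs further on.

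Ccnd1 fell. In the probe set used it was 3297, 3144 and 3414 in DKK against 2968, 2499 and 2218 in DKK + dox. There the DKK values stayed nearly level and the dox values were lower at each later time. All 3 dox values lay under all 3 DKK values, and the fitted difference was -0.62 (SE 0.064, limma adjusted p 0.002). Both other probe sets were higher at 12 hours than at 6 hours in both conditions. The dimmer of these was 1231, 1717 and 1558 in DKK against 1147, 1437 and 1044 in DKK + dox, with overlapping values. In the probe sets used, all dox values lay above all DKK values in 5 members (Ccnd2, Ccnd3, Mcm4, Ccnb2 and Cdk1), against 5.1% of all genes. They lay below in Ccnd1 alone, against 7.09%.

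The probe sets of each D-type cyclin gave the same direction at 24 hours. The 3 probe sets of Ccnd1 differed by -0.84, -0.62 and -0.57 log2 units with dox at 24 hours, and the 5 probe sets of Ccnd2 above the limit on every array by 1.71 to 2.57. The other 2 Ccnd2 probe sets, above the limit on 1 array each, differed by 1.17 and 1.11. Ccnd3 had 1 probe set above the limit on every array. Over all members, 24 genes had at least 2 probe sets above the limit on every array, and in 8 of these the probe sets differed in sign at 24 hours, none of them a D-type cyclin.

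**Figure D2:**
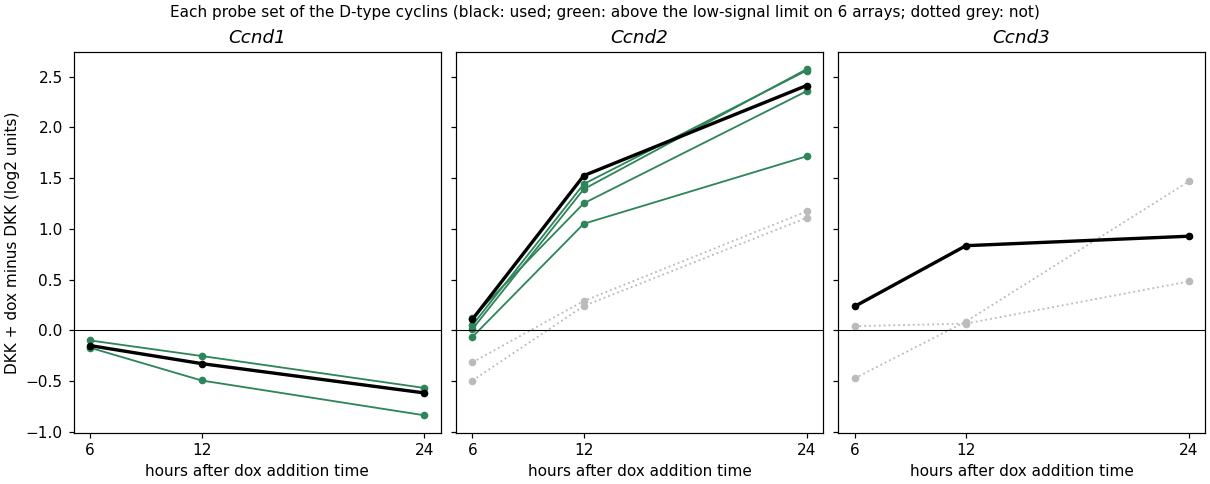
Difference between DKK + dox and DKK in log2 units (y axis) at 6, 12 and 24 hours (x axis) for every probe set of Ccnd1, Ccnd2 and Ccnd3, each point resting on 2 arrays. Black is the probe set used for the gene, green the other probe sets above the low-signal limit on all 6 arrays and dotted grey those that were not, and the Ccnd1 lines run below 0 while the used Ccnd2 line ends at 2.41.

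The kinase partners of the D-type cyclins did not pass. Cdk4, the G1 kinase, was 4209, 4684 and 4924 in DKK against 4500, 5496 and 5336 in DKK + dox, higher with dox at each time, with a fitted difference of 0.19 (SE 0.074, limma adjusted p 0.131). Cdk6, its close relative, was 561, 781 and 696 in DKK against 654, 1132 and 735 in DKK + dox. Its difference was 0.21, 0.53 and 0.08 log2 units at 6, 12 and 24 hours, greatest at 12 hours, and the fit without the 24 hour pair called it higher with dox.

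Of the G1 to S genes, Ccne1, which encodes the cyclin E1 subunit that activates CDK2, fell. It was 2058, 1631 and 1515 in DKK against 2114, 1378 and 1096 in DKK + dox at 6, 12 and 24 hours. The conditions were level at 6 hours and dox was lower by 0.24 and 0.46 log2 units at the later times, with overlapping values between the groups. The fitted difference was -0.43 (SE 0.092, limma adjusted p 0.022), the second probe set differed by -0.44 at 24 hours, and Ccne1 no longer passed without the 24 hour pair. Its relative Ccne2 (fitted difference -0.08), the kinase Cdk2 (0.15) and the CDK-activating phosphatase Cdc25a (0.08) did not pass, with limma adjusted p of 0.769, 0.384 and 0.598.

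Of the 7 role groups the CDK inhibitors had the greatest median change with time, -1.39 log2 units from 6 to 24 hours in DKK. That median was the value of a single gene with low signal, Cdkn2a. In the probe sets used, the 5 inhibitors ran from -1.96 to 0.78. Cdkn1c, which encodes the p57 inhibitor, rose. It was 2778, 1263 and 698 in DKK against 2731, 1398 and 1552 in DKK + dox at 6, 12 and 24 hours. It was lower at 12 hours than at 6 hours in both conditions. The 2 conditions were nearly level with each other at 6 and 12 hours and separated at 24 hours, where the ratio was 2.22-fold. The fitted difference of 0.91 (SE 0.166, limma adjusted p 0.013) therefore rests on the 24 hour pair, and without that pair it was 0.21 and did not pass.

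Cdkn2b and Cdkn2a, neighbouring genes for the INK4 inhibitors that block CDK4 and CDK6, had low signal. Cdkn2b was 126, 55.8 and 32.7 in DKK against 135, 69.3 and 60.6 in DKK + dox, and Cdkn2a was 73.0, 29.4 and 15.1 in DKK against 57.0, 30.3 and 28.1 in DKK + dox. Cdkn2a exceeded the limit at 6 hours only, in both conditions, and the DKK value of Cdkn2b at 24 hours was also under it. Neither passed, with fitted differences of 0.57 (limma adjusted p 0.118) for Cdkn2b and 0.30 (0.544) for Cdkn2a.

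The p21 gene Cdkn1a, a target of p53, was 559, 571 and 392 in DKK against 515, 349 and 533 in DKK + dox. It was lower with dox at 12 hours by 0.68 log2 units and higher at 24 hours by 0.42, and the fitted difference of 0.04 (SE 0.283) did not pass. The p27 gene Cdkn1b was 410, 649 and 719 in DKK against 353, 561 and 594 in DKK + dox, lower with dox at each time but with a fitted difference of -0.32 that did not pass (SE 0.123, limma adjusted p 0.132). At 24 hours the second Cdkn1b probe set differed by 0.05, the opposite sign. The median difference of the 5 inhibitors was -0.11, 0.03 and 0.45 log2 units at 6, 12 and 24 hours, and with an offset of 1 the last of these was 0.85. The 0.03 and 0.45 were the values of Cdkn2a, which was under the low-signal limit in both conditions at those times.

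**Figure D3:**
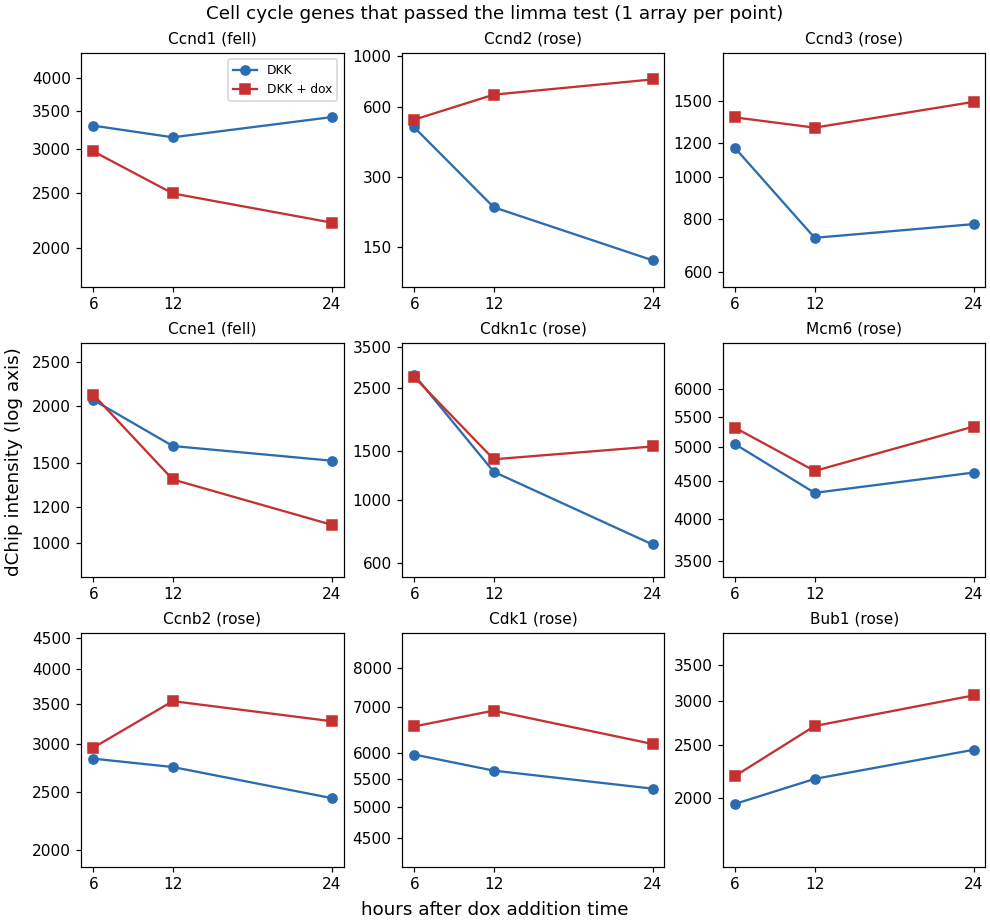
Probe set intensity on a log axis (y axis, scaled separately for each gene) against hours after the time of dox addition (x axis) for the 9 cell cycle genes that passed the limma test, with 1 array per point. Blue circles are DKK and red squares DKK + dox, and Ccnd2 separates from 12 hours while Cdkn1c separates at 24 hours.

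None of the pocket proteins, their E2F partners or the Myc factors passed. The retinoblastoma gene Rb1 was 241, 276 and 213 in DKK against 212, 176 and 221 in DKK + dox, with differences of -0.17, -0.59 and 0.05 log2 units at 6, 12 and 24 hours. Its relatives Rbl1 (fitted difference 0.21) and Rbl2 (-0.37) differed most at 24 hours, by 0.28 and -0.39 log2 units. The Rbl2 value in DKK + dox at 24 hours, 37.4, was just above the low-signal limit. A second Rbl1 probe set above the limit on every array had the opposite sign at 24 hours, -0.41. Among the activating E2F factors, E2f1 (0.20) and E2f3 (0.15) were within 0.26 log2 units at each time in the probe sets used. Each had a second probe set above the limit on every array. That of E2f1 differed by 0.36 at 24 hours, and that of E2f3 by -0.37 at 12 hours. At 24 hours the 2 E2f3 probe sets had opposite signs, 0.26 and -0.05. E2f2 was 204, 82.9 and 67.5 in DKK against 169, 37.9 and 46.3 in DKK + dox, lower with dox at each time, most at 12 hours by 0.82 log2 units. Its fitted difference of -0.66 had an SE of 0.267 and a limma adjusted p of 0.150. Myc, which drives growth and G1 entry, was 534, 520 and 428 in DKK against 577, 463 and 339 in DKK + dox, and its relative Mycn was 3988, 4158 and 3850 in DKK against 2982, 3906 and 3447 in DKK + dox. Their fitted differences were -0.28 (SE 0.133, limma adjusted p 0.205) and -0.23 (SE 0.131, limma adjusted p 0.292). The Mycn probe set used differed by -0.42, -0.09 and -0.16 log2 units at 6, 12 and 24 hours. A second Mycn probe set above the limit on every array differed by -0.40, -0.80 and -0.23.

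The replication genes were the most even group. In the probe sets used, across the 9 genes and 3 times, the greatest difference with dox in either direction was 0.208 log2 units, and the 95% intervals of the fitted differences lay between -0.15 and 0.39. Pcna, the sliding clamp of DNA polymerase, was 12201, 11844 and 11392 in DKK against 12297, 11971 and 11298 in DKK + dox. The Pcna values of the 2 conditions were almost the same at each time, and the interval of its fitted difference ran from -0.093 to 0.090. Of the MCM helicase subunits, which are loaded on origins by Cdc6 and Cdt1, Mcm6 rose. Mcm6 was 5050, 4338 and 4623 in DKK against 5317, 4646 and 5338 in DKK + dox, with a fitted difference of 0.21 (SE 0.054, limma adjusted p 0.040). The call was close to the threshold and was lost without any 1 of the 3 time points and when the arrays were centred on their medians. Both other Mcm6 probe sets differed by -0.12 and -0.06 log2 units at 12 hours and by 0.18 and 0.07 at 24 hours.

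The other replication genes did not pass. Mcm4 was 3394, 3115 and 3338 in DKK against 3466, 3602 and 3565 in DKK + dox, every dox value above every DKK value, with a fitted difference of 0.16 (SE 0.076, limma adjusted p 0.222). The second Mcm4 probe set, also above the limit on every array, differed by -0.08, -0.21 and 0.19 log2 units at 6, 12 and 24 hours. The fitted differences of Mcm2 (-0.02), Mcm3 (0.07), Mcm5 (0.04) and Mcm7 (0.01), the other helicase subunits, were smaller than that. The licensing factors Cdc6 (0.17) and Cdt1 (0.14) were higher with dox at each time by 0.09 to 0.19 log2 units. Cdt1 was lower at 12 hours than at 6 hours in both conditions, at 5521, 3754 and 3892 in DKK against 5866, 4104 and 4169 in DKK + dox.

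**Figure D4:**
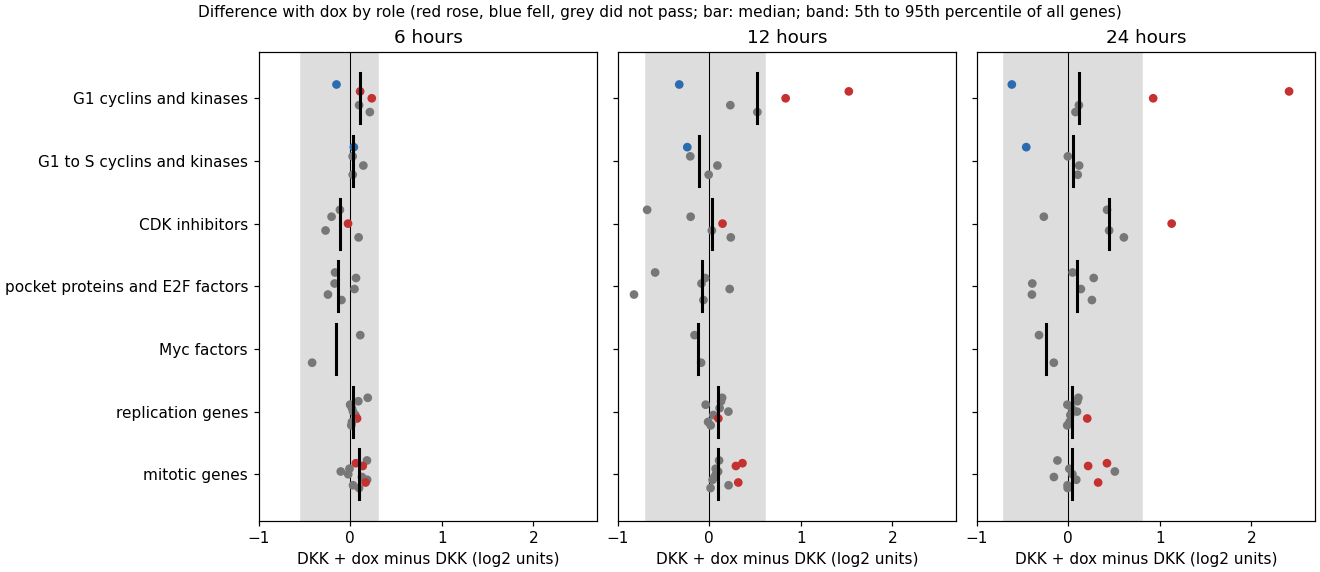
Difference between DKK + dox and DKK in log2 units (x axis) at 6, 12 and 24 hours (panels) for each cell cycle gene, grouped by role (y axis), with 2 arrays behind each point. Red and blue points rose and fell in the limma fit over all times, black bars are group medians and the grey band spans the 5th to 95th percentile of all genes, within which all replication and mitotic genes lie.

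Among the 11 mitotic genes, 3 rose and none fell by the limma test, with 4 of the 11 higher with dox at each of the 3 times, beside 8.32%, 6.38% and 21.5% of all genes. Ccnb2, the cyclin B2 subunit of the mitotic kinase, was 2837, 2747 and 2439 in DKK against 2959, 3537 and 3275 in DKK + dox. All dox values were above all DKK values, and the fitted difference was 0.47 (SE 0.079, limma adjusted p 0.010). Its kinase partner Cdk1 was 5970, 5655 and 5322 in DKK against 6563, 6922 and 6185 in DKK + dox. These values did not overlap either, and the fitted difference was 0.30 (SE 0.074, limma adjusted p 0.036). Bub1, a kinase of the spindle checkpoint, was 1955, 2170 and 2451 in DKK against 2198, 2707 and 3077 in DKK + dox, with a fitted difference of 0.40 (SE 0.084, limma adjusted p 0.021). In the probe set used, Bub1 was higher at each later time in both conditions, with overlapping values. Its second probe set differed by -0.05, -0.002 and 0.29 log2 units at 6, 12 and 24 hours. That second probe set was lower at each later time in DKK, at 63.9, 58.7 and 55.4. Cdk1 and Bub1 no longer passed without the 6 hour pair, and Ccnb2 no longer passed without the 24 hour pair, where its fitted difference was 0.63.

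The proliferation marker Mki67 was 1092, 1191 and 1315 in DKK against 1014, 1274 and 1879 in DKK + dox. Its values were higher at each later time in both conditions and parted at 24 hours, by 0.51 log2 units, and the fitted difference of 0.40 (SE 0.118, limma adjusted p 0.060) did not pass. The remaining mitotic genes had fitted differences from -0.07 to 0.11. Ccna2, the cyclin of S phase and G2, was 2876, 2945 and 3114 in DKK against 3266, 3173 and 2866 in DKK + dox, with a fitted difference of -0.02 (SE 0.099). Aurka, the kinase of the spindle poles, was 2344, 2021 and 1984 in DKK against 2562, 2102 and 1777 in DKK + dox. Both were higher with dox at 6 hours, by 0.18 and 0.13 log2 units, and at 24 hours the differences were -0.12 and -0.16. Top2a, which untangles DNA, Cdc20, the activator of the anaphase-promoting complex, Plk1, a kinase of mitotic entry, and Bub1b, a checkpoint partner of Bub1, had fitted differences of 0.06, 0.03, 0.02 and 0.08. Aurkb, the kinase of the chromosomal passenger complex, had 0.11.

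The levels also differed with time in the absence of dox. On the scale with the offset, between 6 and 12 hours in DKK 3 members (Ccnd2, Cdkn1c and E2f2) were at least 2-fold lower and none higher, against 4.57% and 1.86% of all genes, and between 12 and 24 hours none differed at least 2-fold, against 0.352% lower and 0.427% higher. From 6 to 24 hours in DKK, 5 members were at least 2-fold lower (Ccnd2, Cdkn1c, Cdkn2a, Cdkn2b and E2f2) and none was at least 2-fold higher, against 4.26% lower and 2.51% higher among all genes. In counts, 628 of all genes were lower and 371 higher, a split that became 451 and 550 when arrays were centred on their medians and 497 and 476 after quantile normalization. In DKK + dox, E2f2 alone was at least 2-fold lower from 6 to 24 hours, against 3.72% of all genes, and no member was at least 2-fold higher, against 5.94%. Cdkn2a and Cdkn2b, with low signal, were past 2-fold lower in intensity without the offset both from 6 to 12 hours in DKK and from 6 to 24 hours in DKK + dox. Without the offset Rbl1, in the probe set used, was past 2-fold higher from 6 to 24 hours in DKK + dox, from 127 to 268. Ccnd2 differed in direction between the conditions, being lower at 24 hours than at 6 hours by 1.75 log2 units in size in DKK and higher by 0.56 in DKK + dox. In the probe sets used, 4 of 5 CDK inhibitors were lower at 24 hours than at 6 hours in DKK. Cdkn1b was 0.78 higher in DKK and 0.72 higher in DKK + dox. The second Cdkn1b probe set, above the limit on every array, was instead lower at 24 hours. It was 131, 70.9 and 78.9 in DKK against 102, 58.7 and 82.4 in DKK + dox at 6, 12 and 24 hours. The Rbl1 probe set used was higher at 24 hours than at 6 hours, by 0.75 without dox and by 0.97 with it. A second Rbl1 probe set above the limit on every array did not share the rise with dox. With dox its intensity was 84.6 at 6 hours but 57.1 at 24 hours. Without dox it moved from 76.2 to 82.3 over the same span.

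**Figure D5:**
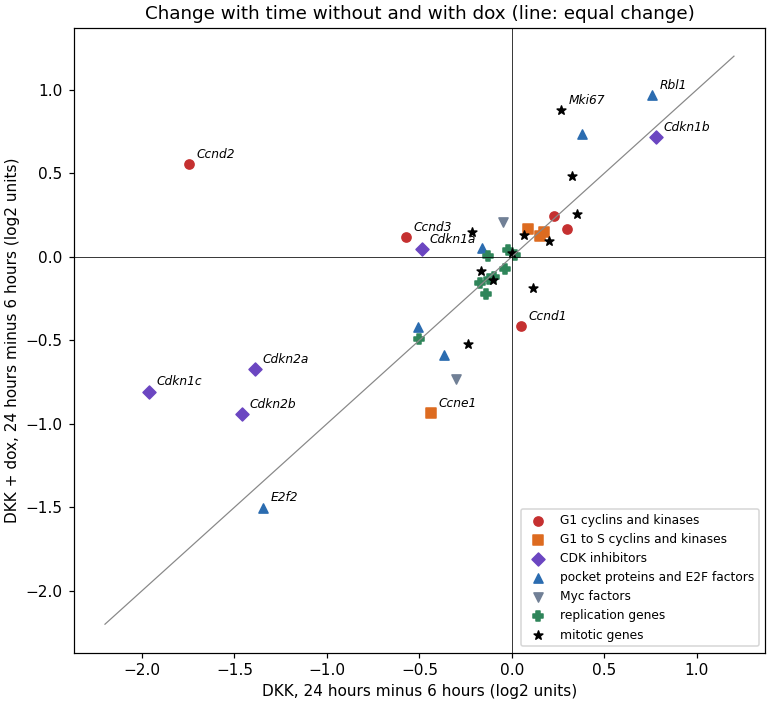
Change from 6 to 24 hours in log2 units in DKK (x axis) and in DKK + dox (y axis) for the 42 cell cycle genes, each change resting on 2 arrays, with colour and shape giving the role and the line marking equal change. Most replication and mitotic genes cluster near the origin, while Ccnd2 lies at -1.75 on the x axis and 0.56 on the y axis and the INK4 genes and Cdkn1c lie above the line.

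Other genes of the same pathways were counted in lists, against the background of 8.32% of all genes that rose and 6.38% that fell. Of 27 other G1 regulators 3 rose and 4 fell. Ccng2, a cyclin linked to cell cycle exit, rose by 1.70 fitted log2 units, from 217, 250 and 305 in DKK to 406, 538 and 895 in DKK + dox at 6, 12 and 24 hours, with every dox value above every DKK value. Mxd4 (1.41), which encodes a Myc antagonist, rose too, while E2f8 (-0.67), a repressive E2F, and Lin9 (-0.53), a subunit of the DREAM and MuvB complexes, fell. Of 41 other replication genes 3 rose and 4 fell, the greatest being Pola2 (-0.86), a subunit of DNA polymerase alpha, Cdc45 (0.58), a helicase partner of the MCM ring, Cdc7 (-0.55), the kinase that fires origins, and Lig1 (0.42), the DNA ligase of the lagging strand. Of 36 other mitotic genes only Tpx2 (0.38), a spindle assembly factor, rose and none fell. Of 15 p53 target genes none rose and 4 fell, namely Perp (-1.71), Bbc3 (-0.83), Aen (-0.53) and Zmat3 (-0.47), with limma adjusted p of 0.017, 0.023, 0.018 and 0.031. The median fitted difference was -0.33 in the p53 list, 0.13 in the mitotic list, 0.04 in the replication list and 0.00 in the G1 list, beside 0.01 over all genes.

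Promoters were compared because E2F-regulated and mitotic genes carry known motifs and Snail binds an E-box. RefSeq promoters of build GRCm38.p6, 250 bases before to 50 bases after an annotated start, were matched by symbol for 34 of the 43 genes, giving 40 promoters, and were searched on both strands. Aurkb, Ccna2, Ccnd1, Ccnd2, Ccne2, Cdkn1c, Mcm4, Myc and Rb1 had no promoter entry. Ccnd1, which fell, and Ccnd2 and Cdkn1c, which rose, were therefore not searched for any motif. An E2F motif (TTTCCCGC or TTTGGCGC or TTTCGCGC) was held by 14 of the 40 member promoters, 35.0%, against 1.84% of 32851 promoters in all. The cell cycle homology region (CHR) motif TTTGAA was held by 14, 35.0% against 17.9%, and the CCAAT box CCAAT by 25, 62.5% against 37.4%. The E-box CAGGTG was held by 2, those of Cdkn1a and E2f2, 5.0% against 20.2%. The motifs differed by role: an E2F motif stood in 6 of 9 replication promoters and 1 of 10 mitotic promoters, while 8 of 10 mitotic promoters held the CHR motif and 10 of 10 the CCAAT box. A match is a description of letters and not a site of binding.

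The promoters of Mcm6, Cdk1 and Ccnb2 show these arrangements in genes that rose, and the downstream Ccnd3 promoter shows a G1 promoter with a single match. They were chosen after their values were seen, since Ccnd2 and Cdkn1c were without an entry, and capitals mark the motif matches. They lie at chr1:128359656-128359955 (Mcm6, minus strand), chr10:69352863-69353162 (Cdk1, minus strand), chr9:70421505-70421804 (Ccnb2, minus strand) and chr17:47593217-47593516 (Ccnd3, plus strand).
Mcm6: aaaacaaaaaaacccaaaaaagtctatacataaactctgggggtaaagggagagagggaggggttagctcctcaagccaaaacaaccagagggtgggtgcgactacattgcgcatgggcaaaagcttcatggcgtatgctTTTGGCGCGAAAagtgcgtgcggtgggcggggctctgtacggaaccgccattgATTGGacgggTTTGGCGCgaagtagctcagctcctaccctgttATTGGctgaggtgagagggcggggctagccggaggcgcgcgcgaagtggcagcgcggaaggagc
Cdk1: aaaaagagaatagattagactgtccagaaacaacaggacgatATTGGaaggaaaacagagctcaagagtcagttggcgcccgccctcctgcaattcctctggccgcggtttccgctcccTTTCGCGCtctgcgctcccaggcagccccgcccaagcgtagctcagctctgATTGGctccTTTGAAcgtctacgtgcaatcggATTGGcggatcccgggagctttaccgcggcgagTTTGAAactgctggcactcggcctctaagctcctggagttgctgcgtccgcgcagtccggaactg
Ccnb2: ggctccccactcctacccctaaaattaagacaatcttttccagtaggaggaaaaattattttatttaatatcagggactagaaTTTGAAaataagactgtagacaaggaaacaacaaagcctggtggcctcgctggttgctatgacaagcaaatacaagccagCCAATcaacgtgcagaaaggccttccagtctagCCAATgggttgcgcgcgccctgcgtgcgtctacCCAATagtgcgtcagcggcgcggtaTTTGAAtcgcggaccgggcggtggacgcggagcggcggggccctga
Ccnd3: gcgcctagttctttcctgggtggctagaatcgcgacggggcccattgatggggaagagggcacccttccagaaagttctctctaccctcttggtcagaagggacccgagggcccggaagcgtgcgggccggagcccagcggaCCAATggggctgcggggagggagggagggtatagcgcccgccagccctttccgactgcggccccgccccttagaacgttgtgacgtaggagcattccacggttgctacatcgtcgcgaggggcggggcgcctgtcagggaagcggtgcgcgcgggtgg
Mcm6 held 3 E2F matches, 2 of which overlap, and 2 CCAAT boxes. Cdk1 held 1 E2F match, 2 CHR matches and 3 CCAAT boxes, and Ccnb2 held 2 CHR matches and 3 CCAAT boxes without an E2F match. The promoter of Bub1, a mitotic gene that also rose, is not printed and held 2 CCAAT boxes without a CHR or E2F match. The Ccnd3 promoter held 1 CCAAT box, and its upstream promoter held none of the 4 motifs, as did that of Ccne1.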

How the data were processed

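The authors hybridised total RNA to Affymetrix mouse arrays and processed them with dChip, and what they deposited are probe set intensities on a linear scale from 1 upward. The dChip version and settings were not given in the sources used here, and background handling before the values sets the size of differences at low signal. The table held 45037 probe sets, 34945 with 1 gene symbol, 932 with several and 9160 with none, and each gene was read from its brightest probe set. Array medians ran from 53.6 to 63.7, and 37.5% to 41.3% of values did not exceed the low-signal limit. The number of arrays, 6, limits the precision. limma 3.58.1 in R 4.3.3 fitted log2 values with 4 coefficients and 2 residual degrees of freedom, moderated by an intensity trend, and was tested on simulated data. All 43 genes were named, with Snai1, the defining markers, Cdh1 and in each other list the genes that passed or the 4 with the greatest fitted difference. The members and lists were chosen with earlier results of these data known. Alternatives covered the offset, filter, normalization, choice of probe set, form of the fit and each time point left out.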

Additional observations from a re-analysis of the deposited data

Results flagged for a closer look

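The difference of Cdkn1a between DKK + dox and DKK stood out because its direction was not the same at successive times, being -0.68 log2 units at 12 hours and 0.42 at 24 hours, a shift of 1.10 between them. Each value rests on 2 arrays, 1 per condition, and the difference between the times was not tested. Of its 2 probe sets, 1 exceeded the limit on all 6 arrays.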

How the results depend on the processing

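Main counts were 7 members that rose and 2 that fell, and 1227 and 941 among all genes. With the difference held constant over the 3 times limma called 0 and 0 members and 0 and 0 genes (at an unadjusted p under 0.05, 9 members higher, 4 lower and 2927 genes). With a baseline linear in hours the counts were 1 (Ccnd2) and 1 (Ccnd1) and 121 and 80 genes. Without the intensity trend they were 1 (Ccnd2) and 0 members and 209 and 76 genes. Without the 6 hour pair 4 members rose and 2 fell, beside 793 and 533 of all genes. Without the 12 hour pair 6 rose and 2 fell, beside 952 and 754 of all genes. Without the 24 hour pair 5 rose and 1 fell, beside 229 and 499 of all genes. Centring the arrays on their medians added Mki67 and dropped Cdk1 and Mcm6, and the mean of all probe sets dropped Bub1 and Mcm6. The other offsets, filters, quantile normalization and plain probe sets gave the same 9 members. Single probe sets gave these 9 as well, but there 1 passing probe set was enough to count a gene. No member that passed turned direction under the alternatives with 1 value per gene. Directions of single probe sets were not compared in this way. The median of the CDK inhibitors at 24 hours moved from 0.45 to 0.85 with offset 1. That 0.45, like the change of -1.39 given below, was the value of Cdkn2a, a gene with low signal. That of the pocket proteins and E2F factors moved from 0.09 to 0.26 with plain probe sets only. The change of the CDK inhibitors from 6 to 24 hours in DKK, -1.39, became -1.91 with offset 1, -1.07 with the offset at the 40th percentile, and -0.97 with plain probe sets only or a 60th percentile filter. The causes were not tested. Under a 1.5-fold limit 4 members were higher and 1 was lower at 24 hours. The share of all genes past that limit was not counted, so these counts are not a result about the members. Differences near the low-signal limit depend on the offset, which shrinks them.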
